A study of Mus musculus with 24 samples.

Results

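The TNF response of Ado KO cells after 6 h was described from 8 of the 24 libraries of the series, 4 of Ado KO cells given TNF for 6 h and 4 of Ado KO cells left untreated. The cells were MC38, a mouse colon carcinoma line of C57BL/6 origin kept in DMEM with fetal calf serum, and carried Ado guide 1 or Ado guide 2 (genotype Ado KO), so that each group held 2 libraries of each guide population. Libraries are named by guide and replicate number, 2-1 being replicate 1 of guide 2, and values in every library are given in the order 1-1, 1-2, 2-1 and 2-2. The agent was TNF-alpha in all treated groups. Control cells, which carried control guide 1 or 2, gave 4 libraries at 6 h of TNF and 4 untreated, and Ado KO cells gave a further 4 at 1 h of TNF. RNA was read near the 3′ end of each transcript (QuantSeq), and the deposited values are log2 CPM, tag counts scaled to a common library total on the log2 scale. A gene was tested when it reached 0 log2 CPM in at least 4 libraries, which kept 13272 of 15390 genes. The contrast was made in a limma model of all 24 libraries, and a gene is called changed at a Benjamini-Hochberg adjusted p under 0.05. The labels give no untreated group for the 6 h time, so the effects of TNF and of the time itself cannot be told apart, and nothing there states that replicates came from different cultures. The p-values then cover the scatter of these libraries alone, and that scatter may be technical. Whether each guide population was a pool of edited cells or a clone is not given in the sources used here.

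TNF binds its receptor TNFR1, which assembles a complex of TRADD, RIPK1, TRAF2 and cIAP proteins on the membrane. Ubiquitin chains built there recruit the kinases TAK1 and IKK. IKK marks the IkB proteins for destruction, which frees NF-kB dimers to enter the nucleus, while JNK and p38 kinases activate AP-1. NF-kB then switches on chemokines and adhesion molecules together with its own inhibitors, IkB-alpha and A20, and survival proteins that hold back caspase-8. Ado encodes a thiol dioxygenase that oxidises cysteamine and the N-terminal cysteine of proteins such as RGS4, RGS5 and RGS16, which marks them for degradation.

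Promoter sequence was laid beside the response for the genes that carry it. Windows of 250 bases before to 50 bases after the gene start came from the RefSeq promoter table (GRCm38.p6), which held 8492 of 10808 protein-coding genes tested. The NF-kB letters searched were GGGNNNNNCC on both strands, matches of which may overlap. They occurred in 68.8% of the windows of all genes tested, in 75.2% of 278 windows of genes that rose and in 73.7% of 205 windows of genes that fell, so that the letters alone hardly set the groups apart. The narrower letters GGGNNTTTCC, picked after the shares of several patterns had been seen, occurred in 1.6% of windows tested, 5.0% of those of genes that rose and 2.0% of those of genes that fell. Among the 95 windows of genes that rose by more than 1 on the log2 scale the share was 12.6%. Windows were held for 6 of 10 called cytokine genes, 2 of 4 called NF-kB subunit genes and 9 of 10 called IkB feedback genes. The wider letters occurred in 4, 2 and 6 of these windows, against 68.8% of the windows of all genes tested. The stretches below are those of called cytokine, NF-kB subunit and IkB feedback genes with the smallest adjusted p that held the letters, written 5′ to 3′ along the gene's strand, with each match on either strand in capitals:
Cxcl10 (chr5:92349019-92349068, minus strand, match 159 bases before the start): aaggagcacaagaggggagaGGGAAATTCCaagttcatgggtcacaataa
Csf1 (chr3:107760594-107760643, minus strand, match 154 bases before the start): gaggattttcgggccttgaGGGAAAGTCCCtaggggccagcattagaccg
Cxcl1 (chr5:90891136-90891185, plus strand, match 89 bases before the start): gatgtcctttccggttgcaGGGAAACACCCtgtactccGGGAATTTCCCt
Nfkb2 (chr19:46304706-46304755, plus strand, match 11 bases before the start): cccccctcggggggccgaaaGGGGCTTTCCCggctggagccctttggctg
Rela (chr19:5637303-5637352, plus strand, match 218 bases before the start): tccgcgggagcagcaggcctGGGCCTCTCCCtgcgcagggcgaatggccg
Nfkbia (chr12:55492647-55492696, minus strand, match 29 bases before the start): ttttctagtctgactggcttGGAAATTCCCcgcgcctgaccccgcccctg
Tnip1 (chr11:54962969-54963018, minus strand, match 58 bases before the start): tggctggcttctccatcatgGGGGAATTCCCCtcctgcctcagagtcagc
Nfkbie (chr17:45555574-45555623, plus strand, match 106 bases before the start): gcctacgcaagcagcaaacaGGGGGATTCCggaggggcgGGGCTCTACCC
The stretches of Csf1, Cxcl1, Nfkb2 and Nfkbia held the narrower letters, and those of the other 4 did not. A match is a description of letters and was not tested as a binding site.

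The response was broad, with 855 of 13272 genes called, 6.44% of those tested. Of these, 587 genes (4.42%) were higher at 6 h, by a median of 1.15 on the log2 scale, and 268 genes (2.02%) were lower, by a median of -0.53. These shares are the background for the counts of list members below. Rises were larger than falls, since 119 genes rose by more than 2 and 6 fell by more than 2. These counts include non-coding RNAs. Protein-coding genes, histone genes included, made up 383 of the rises and 260 of the falls. Of the 321 genes that rose by more than 1, 149 were protein-coding. All 855 had the same sign in both guide populations. The calls were made on these same populations together, so a shared sign was likely in advance and is no separate check. With 1 guide population left out the count was 369 without Ado guide 1 and 417 without Ado guide 2. The contrast of the response between Ado guide 2 and Ado guide 1 called 0 genes (0%), and at an unadjusted p under 0.05 it had 398 genes higher and 415 lower. In control cells 1027 genes (7.74%) were higher and 1365 (10.3%) lower at 6 h of TNF than untreated. Of the 587 genes that rose in Ado KO cells 582 were also positive in control cells and 499 were called there, and of the 268 that fell 265 were negative and 192 were called. The median of all genes tested was -0.05. Libraries of untreated and TNF-treated Ado KO cells correlated across genes at 0.952 to 0.963, below the 0.968 to 0.975 between libraries of 1 group, where genes are not independent replicates.

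Secreted signals were among the largest rises. Of 13 measured chemokine and cytokine genes 10 rose and 0 fell, and the median of the list was 1.53, against -0.05 for all genes and a share of 4.42% higher. Ccl2, the monocyte attractant (chromosome 11, 82035571 to 82037453), stood at 9.82, 10.09, 9.83 and 9.71 log2 CPM in Ado KO TNF 6 h libraries, against 6.06, 5.65, 5.98 and 5.70 in untreated ones. The groups lay far apart, with a log2 change of 4.02 ± 0.32 (SE; adjusted p = 2.6e-11). Cxcl10, which attracts T cells through CXCR3, read 6.71, 6.92, 6.56 and 6.56 at 6 h and 3.93, 4.08, 3.66 and 3.27 untreated, a log2 change of 2.95 ± 0.16 (SE; adjusted p = 9.9e-16). All treated libraries lay above all untreated ones for both genes. Most genes here and below were picked by their change in these same libraries, so separate groups are no added evidence. The share of all tested genes with separate groups is not given here. Cxcl1, a neutrophil chemokine, read 5.76, 6.14, 5.47 and 5.49 at 6 h and 1.94, 2.00, 1.97 and 2.05 untreated, a log2 change of 3.73 ± 0.38 (SE; adjusted p = 9.7e-09). Lif, the ligand of the gp130 and LIFR receptor, read 3.68, 4.32, 3.70 and 4.09 at 6 h and -0.33, -0.13, 0.16 and -3.35 untreated. Untreated library 2-2 stood at the bottom of the scale for Lif, so its log2 fold change of 4.86 ± 0.62 (SE; adjusted p = 6.8e-07) rests partly on the lowest value that the table can hold.

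**Figure D1:**
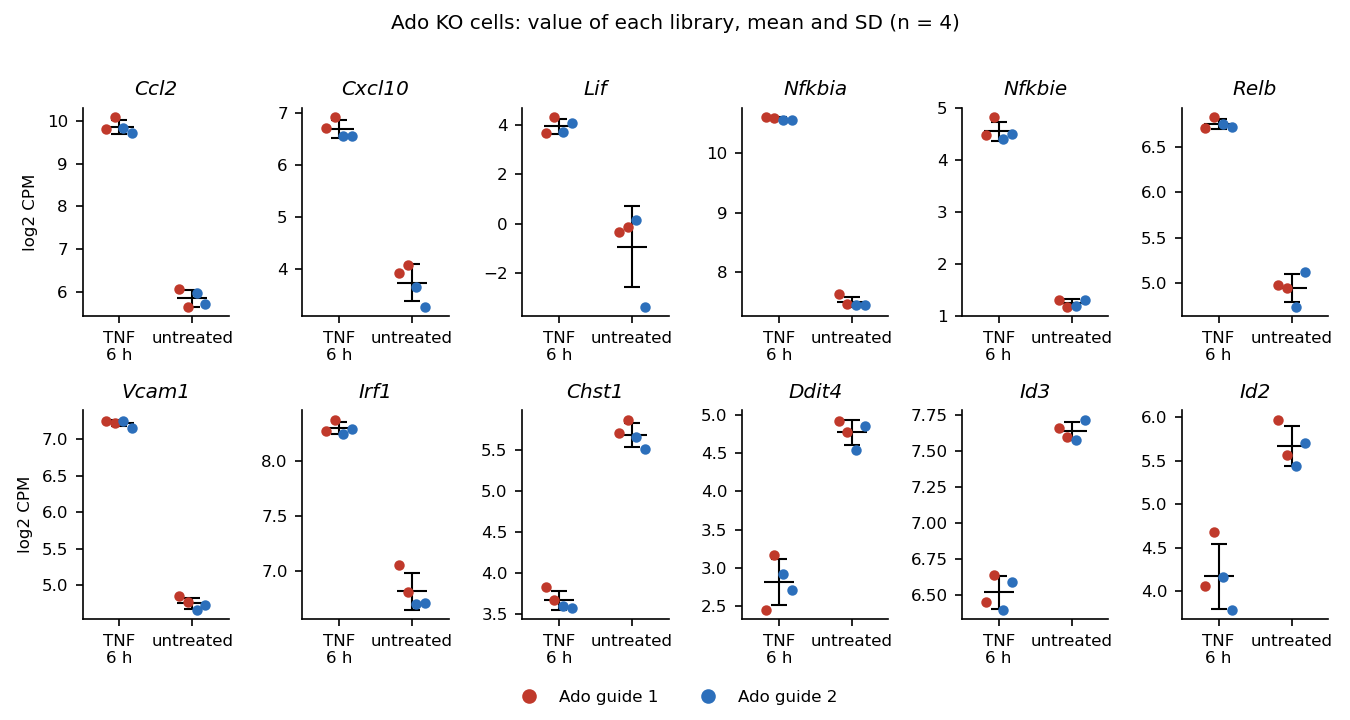
Values of 12 genes in the 4 Ado KO TNF 6 h libraries (left in each panel) and the 4 Ado KO untreated libraries (right), on the log2 CPM scale with a separate axis for each gene. Points are libraries coloured by Ado guide, and bars give the mean and SD. The 8 genes that rose and the 4 genes that fell, Chst1, Ddit4, Id3 and Id2, have no overlap between groups. They were called in these same libraries, so the separation is no added evidence.

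Csf1, the growth factor gene that sustains macrophages, read 8.57, 8.63, 8.54 and 8.65 at 6 h against 6.78, 6.47, 6.38 and 6.41 untreated, a log2 change of 2.09 ± 0.12 (SE; adjusted p = 1.4e-14). Ccl5, a chemokine for T cells and monocytes, read 7.97, 8.04, 7.66 and 7.71 at 6 h against 7.07, 7.12, 6.81 and 6.73 untreated and rose by 0.91 (adjusted p = 2.1e-08). Neither gene had groups that overlapped. Ccl7 rose by 2.24, Cx3cl1 by 1.53 and the alarmin gene Il33 by 1.31. These and other genes marked here as chosen after their values were seen (Ccl7, Cx3cl1, Il33, Inhba, Hbegf, Nos2, Irf5, Tlr2, Fas, Osmr, Tnfaip3, Cd274, Egr1, Nr2f2, Runx2, Meis1, Rmrp, Lars2 and Itga11) lie outside the rule that named the rest. Outside the cytokine list, Inhba, which encodes the activin subunit beta A, rose by 1.88 and the EGF receptor ligand gene Hbegf by 1.36. Nos2, the inducible nitric oxide synthase, read 1.18, 0.10, 0.08 and 1.18 at 6 h against -3.35, -3.35, -3.35 and -1.7 untreated, with 3 of 4 untreated libraries at the lowest value. The call of Cx3cl1 was lost without the untreated library 1-2 (log2 change 1.30, adjusted p = 0.141), and for 6 of the 8 libraries in all.

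Receptors for cytokines rose in smaller number. Of 29 measured, 9 rose and 0 fell, with a list median of 0.40. Il15ra, which presents IL-15 to lymphocytes, read 4.19, 4.90, 4.14 and 4.18 at 6 h and 1.66, 2.31, 1.54 and 1.80 untreated, a log2 change of 2.53 ± 0.30 (SE; adjusted p = 1.8e-07). Library 1-2 was the highest of the treated libraries, and the lowest treated library lay above every untreated one. The interferon gamma receptor chain gene Ifngr2 read 4.47, 4.51, 4.44 and 4.43 at 6 h and 2.90, 3.16, 2.95 and 3.01 untreated and rose by 1.46 (adjusted p = 3.3e-09). The IL-4 receptor gene Il4ra rose by 1.35, the IL-33 receptor gene Il1rl1 by 0.89 and the TRAIL receptor gene Tnfrsf10b by 0.82. Fas, the death receptor, rose by 2.52 (adjusted p = 0.0216) at a low level of 1.87, 1.48, 1.20 and 1.30 log2 CPM at 6 h, against -0.09, 0.15, -0.97 and -3.35 untreated. Osmr rose by 1.98 (adjusted p = 0.0483), also near the bottom of the scale. The pattern recognition receptor gene Tlr2 rose by 1.59 and the transcription factor gene Irf5 by 2.05. Of the 8 fits that left out 1 library each, the call was lost for Fas in 2 cases (adjusted p up to 0.152, without the untreated library 2-2), Osmr in 7 cases (adjusted p up to 0.22, without the untreated library 2-1) and Tlr2 in 2 cases (adjusted p up to 0.06, without the untreated library 1-2).

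The complex at the TNF receptor changed in a few members. Of 25 genes 4 rose and 0 fell, with a list median of 0.10, and the 4 were Traf1, Birc3, Traf5 and Tank. Traf1, an adaptor that joins TRAF2, read 6.30, 6.40, 6.18 and 6.12 at 6 h and 4.47, 4.62, 4.32 and 4.59 untreated, a log2 change of 1.75 ± 0.13 (SE; adjusted p = 3e-12). Birc3, which encodes the ubiquitin ligase cIAP2, read 2.99, 3.14, 3.04 and 3.01 at 6 h against 0.90, 1.60, 0.79 and 1.18 untreated and rose by 1.93 (adjusted p = 2.7e-06). Traf5 rose by 1.24 and Tank, a regulator of the IKK-related kinases, by 1.17. The groups of all 4 genes were apart. Ripk2, the kinase below the NOD receptors, was named as one of the largest rises at 2.29 ± 0.21 (SE; adjusted p = 7.8e-10), with 3.97, 4.29, 3.92 and 4.25 at 6 h and 1.58, 1.92, 1.97 and 1.80 untreated.

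NF-kB subunit genes rose except Rel. Of 5 subunit genes 4 rose, with a list median of 0.84. Relb, a subunit of the non-canonical dimer, read 6.71, 6.83, 6.75 and 6.72 at 6 h and 4.98, 4.95, 4.74 and 5.12 untreated, a log2 change of 1.80 ± 0.09 (SE; adjusted p = 7.7e-16). Nfkb2, which encodes p100 and p52, read 6.36, 6.35, 6.31 and 6.48 at 6 h against 5.23, 5.35, 5.31 and 5.21 untreated, a log2 change of 1.10 ± 0.09 (SE; adjusted p = 1.8e-10). Rela, the p65 subunit, read 8.17, 8.36, 8.20 and 8.33 at 6 h against 7.41, 7.45, 7.40 and 7.43 untreated and rose by 0.84 (adjusted p = 7.8e-10). These 3 genes varied little between libraries of a group. Nfkb1, which encodes p105 and p50, rose by 0.80 (adjusted p = 0.0266). The call of Nfkb1 was lost without the TNF 6 h library 2-1 (log2 change 0.75, adjusted p = 0.0893), and for 5 of the 8 libraries in all. Rel stood between -0.99 and 1.74 log2 CPM in the 8 libraries, its groups overlapped, and its log2 fold change was -0.15 (adjusted p = 0.935).

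Most of the measured inhibitors and feedback regulators of NF-kB rose. Of 16 measured, 10 rose and 0 fell, with a list median of 0.81. Nfkbia, which encodes IkB-alpha (chromosome 12, 55489410 to 55492647), read 10.61, 10.59, 10.56 and 10.56 log2 CPM at 6 h and 7.63, 7.47, 7.46 and 7.46 untreated. The treated libraries hardly differed from each other, and the log2 change was 3.08 ± 0.08 (SE; adjusted p = 1.3e-23). Nfkbie, which encodes IkB-epsilon (chromosome 17, 45555703 to 45563169), read 4.48, 4.83, 4.41 and 4.51 at 6 h against 1.31, 1.18, 1.19 and 1.31 untreated, a log2 change of 3.31 ± 0.23 (SE; adjusted p = 1.5e-12). Nfkbib, which encodes IkB-beta, rose by 0.89 (adjusted p = 8.5e-06). The nuclear IkB gene Bcl3 read 3.92, 3.82, 3.6 and 3.73 at 6 h against 1.81, 1.51, 1.31 and 1.42 untreated and rose by 2.25 (adjusted p = 5.6e-08). Nfkbid and Nfkbiz were not called, at 0.93 (adjusted p = 0.133) and 0.56 (adjusted p = 0.529), and both were low, with no treated library above 1.31 log2 CPM. Tnip1, a partner of A20, rose by 1.95 ± 0.13 (SE; adjusted p = 4.5e-13), and Tnfaip2 by 0.74. Tnfaip3, which encodes the ubiquitin-editing enzyme A20, read 1.60, 2.67, 2.66 and 2.42 at 6 h against -0.33, -0.99, -0.97 and -1.7 untreated and rose by 3.33 (adjusted p = 1.5e-07).

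Of 35 measured genes of cell death and survival 4 rose and 0 fell, against 4.42% of all genes higher and 2.02% lower, with a list median of 0.01, and the 4 were Ier3, Bid, Gadd45b and Bcl2l11. Ier3, a survival gene under NF-kB, read 9.04, 9.03, 8.86 and 8.95 at 6 h and 7.41, 7.40, 7.70 and 7.53 untreated, a log2 change of 1.46 ± 0.11 (SE; adjusted p = 1.7e-11). Bid, the substrate of caspase-8 that links death receptors to mitochondria, rose by 0.74 (adjusted p = 1.4e-06), with groups that did not overlap. Gadd45b, which restrains JNK signalling, rose by 1.49 and Bcl2l11, which encodes the pro-death protein BIM, by 0.97. The call of Bcl2l11 was lost without the untreated library 2-1 (log2 change 0.80, adjusted p = 0.0504).

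Immediate-early genes moved in both directions. Of 30 immediate-early genes 12 rose and 2 fell, with a list median of 0.25. Ier5 read 8.85, 8.97, 8.74 and 8.89 at 6 h and 7.28, 7.34, 7.20 and 7.21 untreated, a log2 change of 1.60 ± 0.07 (SE; adjusted p = 3.2e-17), and the AP-1 gene Junb read 7.25, 6.97, 7.16 and 7.03 at 6 h against 5.23, 5.37, 5.02 and 5.28 untreated, a log2 change of 1.88 ± 0.12 (SE; adjusted p = 2.2e-13). The groups were apart for both. The antiproliferative gene Btg2 rose by 2.69, Egr1 by 1.27, Fosl1 by 0.77 and Jun by 0.66. The 2 that fell were Ier5l, at 3.83, 3.49, 3.82 and 3.88 at 6 h against 5.39, 5.49, 5.42 and 5.76 untreated (-1.76 ± 0.13, SE, adjusted p = 3.4e-12), and Klf2 (-0.73, adjusted p = 0.00474). Of 20 MAPK phosphatase and mRNA decay genes 5 rose and 0 fell, with a median of 0.34. They were the phosphatase genes Dusp8 (1.82), Dusp5 (1.38) and Dusp16 (0.89) and the decay factor genes Zfp36 (1.61) and Zfp36l1 (0.62). Of 10 ETS and ERK output genes 4 rose and 2 fell. Apart from Lif, the risen ones were Ets1 (0.57), Phlda1 (0.55) and the cyclin D1 gene Ccnd1 (0.33), and the fallen ones were Etv1 (-1.14) and Etv5 (-0.49).

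**Figure D2:**
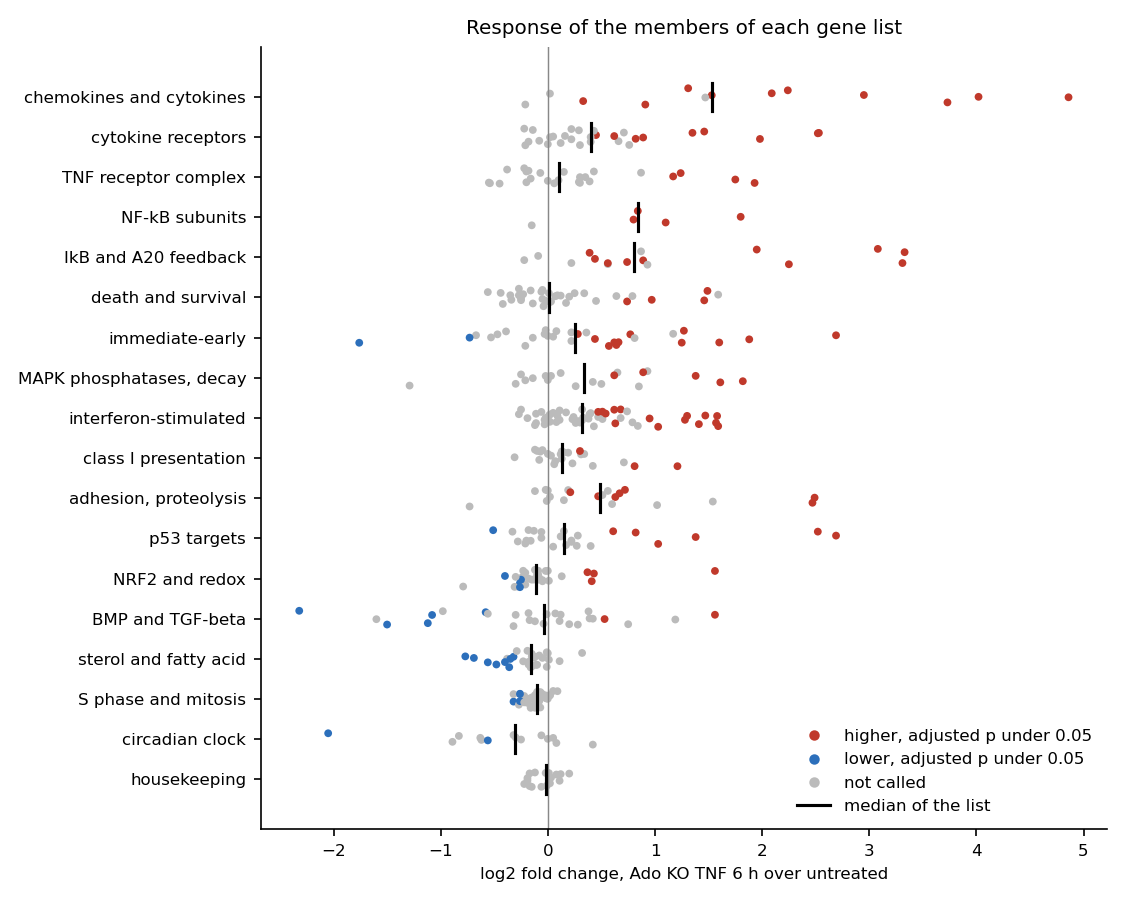
Log2 fold change of Ado KO TNF 6 h over untreated (horizontal axis) for the measured members of 18 gene lists (rows), with members called higher in red, called lower in blue and not called in grey, and the median of each list as a black bar. The chemokine and cytokine list has the highest median, 1.53, and all housekeeping genes are grey.

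Interferon-stimulated genes rose in part. Of 53 measured, 15 rose and 0 fell, with a list median of 0.32. Irf1, the transcription factor at the junction of NF-kB and interferon signalling, read 8.27, 8.37, 8.24 and 8.29 at 6 h and 7.06, 6.81, 6.70 and 6.71 untreated, a log2 change of 1.47 ± 0.10 (SE; adjusted p = 1.8e-12). Rsad2, which encodes viperin, read 6.37, 6.35, 6.18 and 6.02 at 6 h against 4.90, 4.39, 4.71 and 4.64 untreated, a log2 change of 1.57 ± 0.15 (SE; adjusted p = 1.3e-09). Both were well above their untreated range in every treated library. Parp14 rose by 1.59, Ifit3 by 1.41 and Rtp4 by 0.95. Cd274, which encodes PD-L1, read 3.13, 3.55, 3.01 and 2.67 at 6 h against 1.81, 1.92, 1.81 and 1.61 untreated and rose by 1.30 (adjusted p = 0.047). The call of Cd274 was lost without the TNF 6 h library 1-2 (log2 change 1.15, adjusted p = 0.154), and for 7 of the 8 libraries in all. The interferon response letters GAAANNGAAA, on both strands, occurred in 3.1% of windows of all genes tested, 6.1% of those of genes that rose and 2.4% of those of genes that fell. The stretches of the 3 called genes with the smallest adjusted p that held them are shown with the match in capitals:
Rsad2 (chr12:26456543-26456592, minus strand, match 120 bases before the start): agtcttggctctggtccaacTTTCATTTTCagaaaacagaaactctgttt
Ifit3 (chr19:34583353-34583402, plus strand, match 156 bases before the start): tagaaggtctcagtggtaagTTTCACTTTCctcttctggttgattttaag
Ifit3b (chr19:34607749-34607798, plus strand, match 188 bases before the start): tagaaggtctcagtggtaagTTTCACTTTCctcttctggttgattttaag
The stretches of Ifit3 and Ifit3b were identical, and tags of these near-identical neighbours may have been split between them in counting. Of the 15 called interferon-stimulated genes 11 had a window, and 6 of these windows held the interferon response letters.

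Of 23 class I presentation genes 3 rose and 0 fell, with a median of 0.13. H2-Q4 read 3.44, 3.42, 3.27 and 3.45 at 6 h and 2.43, 2.06, 2.45 and 1.80 untreated, a log2 change of 1.21 ± 0.20 (SE; adjusted p = 6.5e-05). H2-Q6 rose by 0.81 (adjusted p = 0.0147), with overlapping groups, and Tapbp, which encodes the peptide loading factor tapasin, by 0.30 (adjusted p = 0.0176). The H2-Q genes are near-identical copies, so their values are uncertain. When any 1 of the 8 libraries was dropped, calls were lost for H2-Q6 in 3 cases (adjusted p up to 0.0762, without the untreated library 2-1) and Tapbp in 3 cases (adjusted p up to 0.113, without the untreated library 2-1).

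Rises also lay among adhesion, protease and prostaglandin genes. Of 20 adhesion and proteolysis genes 7 rose and 0 fell, with a list median of 0.49. Vcam1, the receptor for the leukocyte integrin VLA-4 (chromosome 3, 116109949 to 116129688), read 7.26, 7.23, 7.25 and 7.16 at 6 h and 4.85, 4.78, 4.67 and 4.73 untreated. Both groups spread little and lay far apart, with a log2 change of 2.47 ± 0.09 (SE; adjusted p = 8.4e-20). Plau, which encodes urokinase, read 4.79, 4.85, 4.83 and 4.98 at 6 h against 2.43, 2.51, 2.24 and 2.32 untreated, a log2 change of 2.49 ± 0.23 (SE; adjusted p = 1e-09). The membrane metalloprotease gene Mmp14 rose by 0.47 and the gelatinase gene Mmp9 by 0.67 (adjusted p = 0.0353). Of 8 prostaglandin genes the 2 that rose were consecutive enzymes of PGE2 synthesis. Ptges, the PGE synthase, read 8.11, 8.14, 8.04 and 8.10 at 6 h against 6.68, 6.73, 6.92 and 6.83 untreated and rose by 1.31 ± 0.07 (SE; adjusted p = 8.3e-16), and Ptgs2, which encodes COX-2, rose by 1.01 (adjusted p = 0.00019). Of 32 collagen and matrix genes 1 rose, Col5a3 (1.53), and 1 fell, Thbs2 (-0.27), near the 4.42% of all genes higher and 2.02% lower. Of 11 integrin genes limma called 0 (1 higher and 1 lower at an unadjusted p under 0.05), and their log2 fold changes ran from -0.88 to 0.93. Fits without 1 of the 8 libraries lost the call of Mmp9 in 6 cases (adjusted p up to 0.136, without the TNF 6 h library 1-2) and Thbs2 in 4 cases (adjusted p up to 0.138, without the untreated library 2-2).

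Other large rises lay in signalling and transport. Rgs16, a G protein regulator and N-degron substrate, read 5.17, 5.12, 5.37 and 5.20 at 6 h and 2.80, 1.30, 1.44 and 1.31 untreated, a log2 change of 3.5 ± 0.26 (SE; adjusted p = 8.7e-12). Untreated library 1-1 was above the other 3, and the groups still did not overlap. Rnd1, a small GTPase that loosens the actin skeleton, read 5.26, 4.66, 5.27 and 5.05 at 6 h against 2.48, 2.19, 2.28 and 2.69 untreated, a log2 change of 2.65 ± 0.19 (SE; adjusted p = 2e-12). Of 17 amino acid transport genes 4 rose, the cystine carrier gene Slc7a11 (1.56), the arginine carrier genes Slc7a2 (2.39) and Slc7a1 (0.38), and Slc38a1 (0.31). Of 25 p53 targets 6 rose and 1 fell, with a median of 0.15. The risen ones were Cdkn1a, which encodes the cell cycle inhibitor p21, at 5.29, 5.24, 4.84 and 5.37 at 6 h against 4.25, 3.75, 3.55 and 3.68 untreated (1.38 ± 0.14, SE, adjusted p = 8.8e-09), Plk2 (1.03), Mdm2 (0.61) and Btg2, Fas and Tnfrsf10b, which are also in lists above, and the fallen one was Phlda3 (-0.51). Ankrd1 rose by 1.61 ± 0.13 (SE; adjusted p = 2.3e-11) and Hes1 by 1.27 among 20 Wnt, Notch and Hippo genes, of which Sox9 fell by 0.37. Of 24 actin and SRF genes 1 rose, Tpm1 (0.27), near the 4.42% of all genes higher. The call of Slc7a2 was lost without the untreated library 2-2 (log2 change 1.55, adjusted p = 0.0723).

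Metabolic lists moved in single members. Of 35 hypoxia and glycolysis genes 3 rose and 1 fell, against 4.42% of all genes higher and 2.02% lower, with a median of -0.12. Ndrg1 read 7.01, 6.73, 7.01 and 6.95 at 6 h and 4.77, 4.90, 4.97 and 4.53 untreated, a log2 change of 2.13 ± 0.11 (SE; adjusted p = 3.9e-16), and Hk2 and Vegfa rose by 0.42 and 0.41. The fallen one was Ddit4, which encodes the mTOR inhibitor REDD1, at 2.46, 3.17, 2.92 and 2.72 at 6 h against 4.92, 4.77, 4.54 and 4.85 untreated, a log2 change of -1.95 ± 0.19 (SE; adjusted p = 2.5e-09). Ndrg1 and Ddit4, both known as hypoxia-inducible, thus went opposite ways. Of 32 NRF2 and redox genes 4 rose, Slc7a11, Sqstm1 (0.43), Abcc1 (0.41) and Srxn1 (0.37), and 4 fell, Fth1 (-0.40), Ftl1 (-0.26), Taldo1 (-0.26) and Mt1 (-0.25). The fallen ones include both ferritin chains. In the list of 31 ATF4 targets and unfolded protein response genes Slc7a1 rose while Trib3 (-0.62) and Xbp1 (-0.34) fell. In the 8 fits without 1 library, calls were lost for Vegfa in 5 cases (adjusted p up to 0.128, without the TNF 6 h library 1-1), Fth1 in 3 cases (adjusted p up to 0.0528, without the untreated library 1-1), Ftl1 in 1 case (adjusted p up to 0.0674, without the TNF 6 h library 1-2), Mt1 in 7 cases (adjusted p up to 0.077, without the untreated library 2-2) and Xbp1 in 7 cases (adjusted p up to 0.164, without the untreated library 1-2).

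The called genes of lipid synthesis were all lower at 6 h. Of 31 sterol and fatty acid genes 8 fell and 0 rose, against 2.02% of all genes lower, and 27 of 31 log2 fold changes were negative, with a median of -0.16. Scd2, a fatty acid desaturase gene, read 8.27, 8.35, 8.21 and 8.21 at 6 h and 8.99, 9.01, 8.62 and 8.66 untreated, a log2 change of -0.56 ± 0.08 (SE; adjusted p = 1.5e-05). Insig1, which retains the SREBP precursor in the endoplasmic reticulum, read 4.72, 4.65, 4.62 and 4.66 at 6 h against 5.64, 5.20, 5.31 and 5.27 untreated and fell by 0.69 (adjusted p = 0.00062). The falls were small but the groups did not overlap in either gene. Scd1 fell by 0.36 and Nsdhl by 0.77. The sterol response letters TCACNNCAC occurred in 3.3% of windows tested and 1.0% of those of genes that fell, and in 0 of the 4 windows of called sterol genes. Of 11 coenzyme A and taurine genes 3 fell, Pank1 (-0.78), Coasy (-0.33) and Ppcs (-0.35), which are enzymes of coenzyme A synthesis, and of 14 circadian genes 2 fell, Dbp (-2.05) and Tef (-0.56), which encode related PAR bZIP factors. Of the 8 fits that left out 1 library each, the call was lost for Nsdhl in 3 cases (adjusted p up to 0.07, without the TNF 6 h library 2-1), Coasy in 4 cases (adjusted p up to 0.12, without the untreated library 2-1), Pank1 in 5 cases (adjusted p up to 0.129, without the untreated library 2-2) and Ppcs in 7 cases (adjusted p up to 0.181, without the TNF 6 h library 1-2).

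The largest falls named included the ID genes, whose products block basic helix-loop-helix factors and which BMP signals switch on. Of 27 BMP and TGF-beta genes 5 fell and 2 rose. Id2 read 4.06, 4.68, 4.16 and 3.79 at 6 h and 5.97, 5.57, 5.44 and 5.70 untreated, a log2 change of -1.5 ± 0.21 (SE; adjusted p = 5e-06), and Id3 read 6.45, 6.64, 6.40 and 6.59 at 6 h against 7.66, 7.60, 7.58 and 7.72 untreated, a log2 change of -1.12 ± 0.10 (SE; adjusted p = 2.7e-10). Id1 fell by 1.08 (adjusted p = 0.00014), and no treated library reached the untreated range in any of the 3 genes. Atoh8 fell by 2.32 and Ski by 0.58. The ligand gene Bmp2 rose by 1.56 (adjusted p = 1.2e-05) and Tgif1 by 0.53.

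Chst1, a keratan sulfate sulfotransferase gene, fell the most of the named protein-coding genes with a mean of at least 3 log2 CPM in untreated cells. It read 3.83, 3.67, 3.6 and 3.57 at 6 h and 5.71, 5.87, 5.66 and 5.51 untreated, a log2 change of -2.02 ± 0.10 (SE; adjusted p = 5.6e-16). Nr2f1, which encodes the orphan receptor COUP-TFI, read 3.79, 3.71, 4.00 and 3.41 at 6 h against 5.07, 4.91, 5.14 and 4.87 untreated and fell by 1.27 (adjusted p = 2e-08). Its relative Nr2f2 fell by 1.01. The KIT ligand gene Kitl fell by 1.11, the inositol carrier gene Slc5a3 by 1.06, and Tnrc18, Narf and Ubtd1 by 1.20, 1.11 and 1.03. At lower levels, the transcription factor gene Runx2 fell by 1.06 and Meis1 by 1.74. Of 38 S phase and mitosis genes 4 fell and 0 rose, Plk1 (-0.26), the replication helicase gene Mcm7 (-0.26), Aurka (-0.26) and Ccnb2 (-0.32), with a median of -0.11. When any 1 of the 8 libraries was dropped, calls were lost for Plk1 in 2 cases (adjusted p up to 0.072, without the TNF 6 h library 2-1), Mcm7 in 4 cases (adjusted p up to 0.0755, without the untreated library 2-2), Aurka in 7 cases (adjusted p up to 0.102, without the TNF 6 h library 2-1) and Ccnb2 in 5 cases (adjusted p up to 0.141, without the untreated library 1-2). In bulk RNA, fewer cells in a phase and less RNA per cell cannot be told apart.

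Ado itself (Ensembl ENSMUSG00000057134, GRCm38 chromosome 10, 67544511 to 67548955, minus strand) read 5.43, 5.37, 5.00 and 5.38 log2 CPM at 6 h and 5.43, 5.43, 5.27 and 5.27 untreated, a log2 change of -0.06 ± 0.10 (SE; adjusted p = 0.838). The tag lies near the 3′ end and need not change with a small edit in the coding sequence, so it checks neither the edit nor the label. Of 11 measured Ado and N-degron genes 1 rose, Rgs16, and 1 fell, Rgs2, at 0.55, 1.58, 1.44 and 1.48 at 6 h against 3.39, 2.84, 1.64 and 3.06 untreated (-1.47 ± 0.28, SE, adjusted p = 0.00051). These are RNA values, and the stability of RGS proteins was not measured.

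The tags of many structural small RNAs rose alongside the mRNA response. The class holds the snRNA, snoRNA, scaRNA, rRNA, ribozyme and misc_RNA biotypes of the annotation, which mostly lack a poly(A) tail, while the library kit primes on poly(A). Their share of the summed CPM was 1.7%, 1.63%, 1.44% and 1.46% in the Ado KO TNF 6 h libraries, against 0.284%, 0.290%, 0.388% and 0.384% in untreated ones. The mean was 1.56% ± 0.128 at 6 h and 0.337% ± 0.0574 untreated (SD, n = 4 each), a ratio of 4.63 (two-sided exact permutation test, p = 0.0286, the smallest that 70 divisions allow). Since the values looked quantile-normalised, this share and those of other classes below need not equal shares of the tags. The test took the 8 libraries as independent, although within each group libraries of the same guide lay closer together than libraries of different guides. At 1 h the share was 0.426% ± 0.0434 (SD, n = 4) in Ado KO cells. In control cells it was 2.79% ± 0.608 at 6 h and 0.278% ± 0.0187 untreated (SD, n = 4 each). Every control library at 6 h lay above every Ado KO library at 6 h. The control guide populations also lay apart, at 3.35% and 3.28% for control guide 1 and 2.36% and 2.18% for control guide 2. The difference between genotypes in this share was not tested. Of 346 small RNAs 158 rose and 0 fell, with a median of 1.21, and they made up 158 of the 587 rises. With protein-coding genes alone, normalised again, 375 of the 10574 other protein-coding genes rose and 207 fell, against 355 and 252 with all genes. The part of the small RNA tags in the other values beyond this was not tested.

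**Figure D3:**
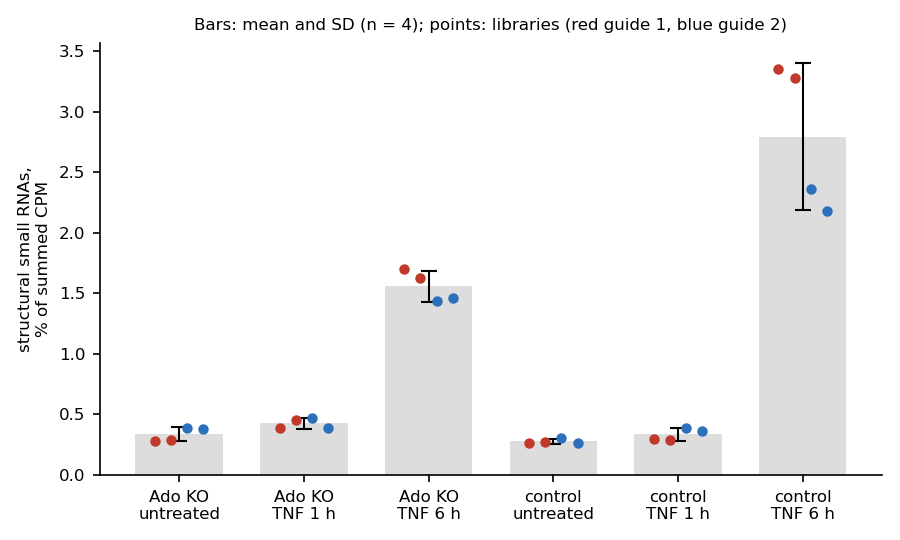
Share of the summed CPM held by structural small RNAs (vertical axis, percent) in each library of Ado KO and control cells, untreated and after 1 h and 6 h of TNF. Bars give the mean and SD of 4 libraries and points the libraries, and the share in Ado KO cells is 0.337% untreated, 0.426% at 1 h and 1.56% at 6 h.

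The 7SK RNA, which holds the elongation factor P-TEFb inactive, led this class. Rn7sk (chromosome 9, 78175303 to 78175633) read 11.44, 11.56, 11.12 and 11.23 log2 CPM at 6 h and 5.56, 5.52, 5.20 and 4.96 untreated, a log2 change of 6.03 ± 0.17 (SE; adjusted p = 4.2e-23). The annotated copy Gm24447 had almost the same values (11.35, 11.42, 11.04 and 11.12 at 6 h against 5.42, 5.41, 5.17 and 4.8 untreated), so its tags and those of Rn7sk cannot be told apart. Rpph1, the RNA of RNase P, read 6.21, 6.08, 5.97 and 5.74 at 6 h against 1.74, 1.60, 2.28 and 1.80 untreated, a log2 change of 4.14 ± 0.20 (SE; adjusted p = 1.5e-16). The RNase MRP RNA gene Rmrp, whose symbol matches 2 annotated genes of different biotype and so lies outside the class, rose by 4.87. Among nucleolar RNAs Snord118, the U8 RNA of ribosomal RNA maturation, rose by 4.08, and the U3 gene Rnu3b1 by 3.15. Of 228 nucleolar RNAs 96 rose and of 72 small nuclear RNAs 40 rose. The 118 small RNAs that lie in no other gene had a median of 1.57 and 65 rises, and the 228 inside another gene on the same strand had a median of 1.04 and 93 rises. For those inside, tags of host and RNA may be mixed. Of 11 snoRNA host transcripts of the Snhg series 5 rose, with a median of 0.44, among them Snhg17 (1.23) and Snhg12 (0.92).

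Histone genes split by type. Of 62 replication-dependent histone genes 24 rose and 4 fell, with a median of 0.90, while their share of the summed CPM was 0.715% ± 0.0573 at 6 h and 0.808% ± 0.121 untreated (SD, n = 4 each; exact permutation p = 0.229). Of H3 genes 8 of 12 rose, of H4 genes 11 of 13 and of H2B genes 5 of 14, whereas of 18 H2A genes 0 rose and 4 fell. Of 5 H1 genes limma called 0 (0 higher and 2 lower at an unadjusted p under 0.05), with a median of -0.30. Hist1h4n read 3.55, 3.45, 3.07 and 3.79 at 6 h and 1.42, 1.68, 2.17 and 1.71 untreated, and Hist1h2ao read 10.14, 9.93, 9.99 and 9.88 at 6 h against 10.16, 10.01, 10.69 and 10.36 untreated and fell by 0.32 with overlapping groups. The call of Hist1h2ao was lost without the untreated library 2-1 (log2 change -0.19, adjusted p = 0.188), and for 5 of the 8 libraries in all. Many histone genes are near-identical, so single members are uncertain. Of 13 mitochondrially encoded mRNAs 4 rose, mt-Nd5 (1.41), mt-Nd4l (0.75), mt-Co1 (0.66) and mt-Nd6 (0.55). The summed share of the mitochondrially encoded mRNAs, without mitochondrial non-coding RNAs, was 1.85% ± 0.108 at 6 h and 1.52% ± 0.0434 untreated (SD, n = 4 each; exact permutation p = 0.0286). Of 81 cytosolic ribosomal protein genes 1 fell, Rps28 (-0.23), against 2.02% of all genes lower. Of 78 nuclear respiratory chain genes 3 fell, Ndufb11 (-0.32), Ndufb2 (-0.31) and Ndufb8 (-0.18). Fits without 1 of the 8 libraries lost the call of mt-Nd6 in 4 cases (adjusted p up to 0.123, without the TNF 6 h library 2-2), Rps28 in 8 cases (adjusted p up to 0.122, without the TNF 6 h library 2-2), Ndufb11 in 3 cases (adjusted p up to 0.107, without the untreated library 1-1), Ndufb2 in 6 cases (adjusted p up to 0.201, without the TNF 6 h library 1-2) and Ndufb8 in 8 cases (adjusted p up to 0.126, without the TNF 6 h library 2-1).

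The response of Ado KO cells was set against that of control cells by the interaction of genotype and TNF at 6 h. It called 46 genes (0.347%), with 0 higher and 46 lower in Ado KO cells. Of these 34 were structural small RNAs, 10 were other non-coding or unmatched genes and 2 were protein-coding, Lars2 and Itga11. In 45 of the 46 both genotypes had a positive response and that of Ado KO cells was the smaller. Gm24616, a nucleolar RNA gene, rose by 1.26 in Ado KO cells and by 2.76 in control cells, a difference of -1.49 (adjusted p = 9.1e-07). Snora30 rose by 1.31 in Ado KO cells and by 2.87 in control cells, a difference of -1.55. Snora44 rose by 1.12 in Ado KO cells and by 2.53 in control cells, a difference of -1.41, and the host transcript Snhg12 by 0.92 in Ado KO cells and 2.01 in control cells, a difference of -1.09. Lars2, a mitochondrial leucyl-tRNA synthetase gene, rose by 1.96 in Ado KO cells and 3.20 in control cells (difference -1.24, adjusted p = 0.0272). Itga11 had -0.16 in Ado KO cells and 3.42 in control cells (difference -3.58, adjusted p = 0.0289) at levels near 0 log2 CPM. The count depended on the guide populations, with 45 genes called without Ado guide 1, 1 without Ado guide 2, 7 without control guide 1 and 64 without control guide 2. It was 28 without the Ado KO untreated library 2-1 and 27 without the control TNF 6 h library 1-1. The count was 0 when protein-coding genes alone were normalised again. That fit left out the 34 structural small RNAs and the 10 other genes, so of the 46 it could call only Lars2 and Itga11. Among its 10746 genes 302 were higher and 275 lower at an unadjusted p under 0.05. With all 13272 genes, 443 were higher and 450 lower at that p.

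In the NF-kB subunit, IkB feedback, cytokine, interferon and sterol lists limma called 0 members in this interaction, and at an unadjusted p under 0.05 the counts were 0 higher and 0 lower for the subunits, 2 higher and 0 lower for IkB feedback, 1 higher and 2 lower for cytokines, 2 higher and 1 lower for interferon and 1 higher and 1 lower for sterol genes. Nfkbia differed by 0.09 (95% interval -0.14 to 0.32), Ccl2 by 0.02 (-0.89 to 0.92), Vcam1 by -0.12 (-0.38 to 0.14) and Relb by -0.02 (-0.29 to 0.25). The intervals are narrow for Nfkbia, Vcam1 and Relb and wide for Ccl2. Rsad2 rose by 1.57 in Ado KO cells and by 0.80 in control cells, a difference of 0.77 (interval 0.35 to 1.20, adjusted p = 0.167), and Nfkbie by 3.31 in Ado KO cells and 2.56 in control cells, a difference of 0.75 (0.09 to 1.42, adjusted p = 0.671). A difference that missed the threshold does not show equal responses. Side by side, the cytokine list had 10 rises in Ado KO cells and 11 in control cells, the IkB feedback list 10 in Ado KO cells and 8 in control cells, and the interferon list 15 in Ado KO cells and 14 in control cells. The sterol list had 8 falls in Ado KO cells and 14 in control cells, and the circadian list 2 in Ado KO cells and 5 in control cells.

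**Figure D4:**
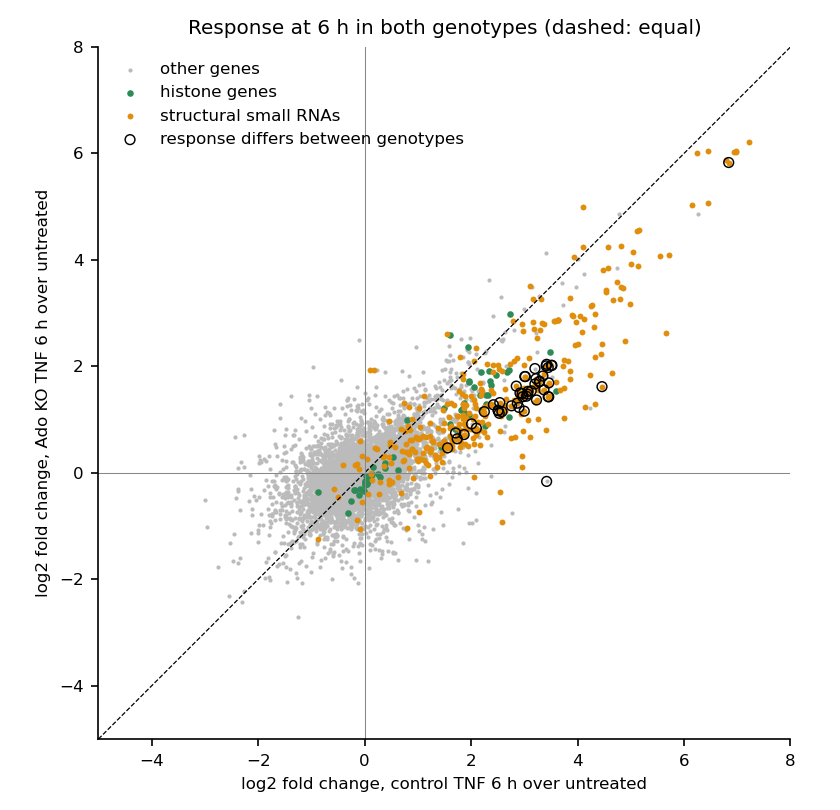
Log2 fold change of TNF 6 h over untreated in Ado KO cells (vertical) and control cells (horizontal) for 13272 genes, with structural small RNAs in orange, histone genes in green, other genes in grey and rings on the 46 genes whose response differed between genotypes. The dashed line marks equal responses, and the ringed genes lie below it.

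Against the 1 h libraries of the same Ado KO cells, 537 genes (4.05%) were higher at 6 h and 494 (3.72%) were lower, 1031 in all, and 679 were called without the Ado KO TNF 6 h library 1-2. This comparison shares the 6 h libraries with the one against untreated cells. Nfkbia had a mean of 7.5 untreated, 10.63 at 1 h and 10.58 at 6 h, and the change between 1 h and 6 h was -0.05 (adjusted p = 0.763). Irf1, with 6.82 untreated, 8.45 at 1 h and 8.29 at 6 h, and Junb, with 5.22 untreated, 7.40 at 1 h and 7.10 at 6 h, were not called between 1 h and 6 h either (adjusted p = 0.39 and 0.134). Zfp36 was lower at 6 h than at 1 h by 0.97 (adjusted p = 0.00223) and Ier3 by 0.42 (adjusted p = 0.0159), while both remained above untreated. Cxcl1 had 5.72 at 6 h and 6.73 at 1 h (adjusted p = 0.109).

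Many of the other leading genes were higher at 6 h than at 1 h. Ccl2 had 9.86 at 6 h and 7.40 at 1 h, a difference of 2.46 (adjusted p = 1.1e-06), with 1 of the 4 libraries at 1 h within the untreated range. Lif differed by 3.33, Il15ra by 2.65, Nfkbie by 2.55, Plau by 2.15, Vcam1 by 1.60, Cxcl10 by 1.47, Relb by 1.45 and Ptges by 1.13, all called. Of the 4 risen subunit genes of NF-kB all were higher than at 1 h. All 15 interferon-stimulated genes called in this comparison were higher at 6 h, Ifit3 by 1.44 and Parp14 by 1.48, whereas Irf1 was not among them. Among falls, Chst1 was lower than at 1 h by 1.97 and Ddit4 by 1.72, and Id1 was not called (-0.45, adjusted p = 0.156), having means of 5.10 untreated, 4.47 at 1 h and 4.02 at 6 h.

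**Figure D5:**
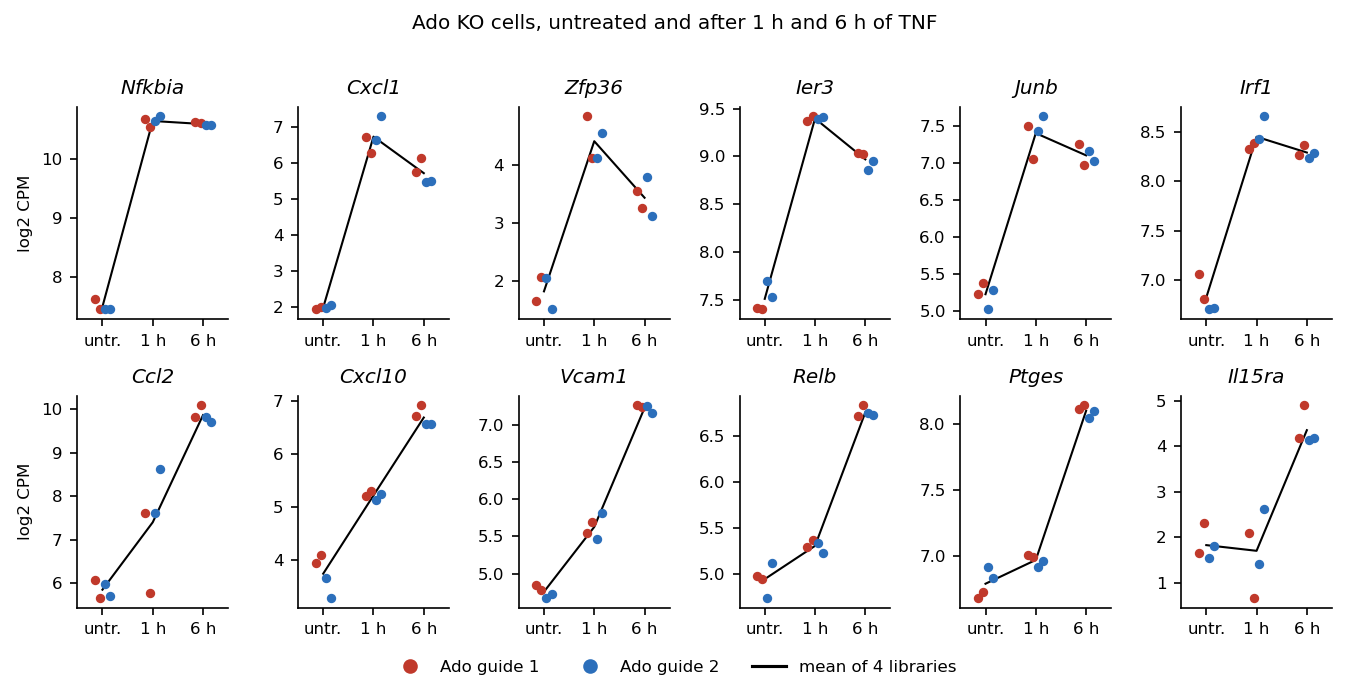
Values of 12 genes in Ado KO cells, untreated and after 1 h and 6 h of TNF (evenly spaced, not to scale), on the log2 CPM scale with a separate axis for each gene. Points are libraries coloured by Ado guide and the line joins the means of 4 libraries. Nfkbia is at 10.63 at 1 h and 10.58 at 6 h, and Ccl2, Vcam1, Relb and Ptges are highest at 6 h.

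Markers of cell types had summed values whose ranges overlapped between the groups. Of 13 epithelial markers Krt8 alone passed the filter, and the other 10 had no values in the deposited data. The summed CPM of the 3 measured was 0.879 to 1.69 at 6 h and 0.497 to 2.66 untreated. The epithelial origin of the line thus does not show in these markers. The 9 measured immune markers summed to 17.7 to 29.8 CPM at 6 h and 14.1 to 39.3 untreated, and limma called 0 of the 6 tested (1 higher and 0 lower at an unadjusted p under 0.05). The 8 measured endothelial, pericyte and fibroblast markers summed to 42.3 to 52.6 CPM at 6 h and 45.1 to 71.6 untreated, and of the 7 tested 1 fell, Pdgfrb (-1.54, adjusted p = 0.00391). Of 18 housekeeping genes limma called 0 (0 higher and 4 lower at an unadjusted p under 0.05), with log2 fold changes between -0.22 and 0.20.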

How the data were processed

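RNA of MC38 cells was measured by 3′ tag sequencing (QuantSeq kit, per the labels' protocols) in 24 libraries. Per the submitters' processing notes the tools were HISAT2, Subread, featureCounts, limma, cutadapt 1.7 and FastQC and the builds mm10 and GRCm38, with no roles given; whether counting used strand is not given in the sources used here. The authors deposited 1 table of log2 CPM values for 15390 genes. Its values looked quantile-normalised, since every library had the lowest value -3.349 and the highest 17.04. Depth is not stated, so no counting interval is given.

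Groups came from the titles. Columns were joined by the description. For control guide 2 at 1 h, which enters no value here beyond the shared spread, titles and column names give opposite replicate numbers. A limma 3.58.1 model (R 4.3.3, statmod 1.5.0) of 6 group means with a random block for the guide population (correlation 0.0485) and a variance trend was fitted to 13272 genes with at least 0 log2 CPM in at least 4 libraries, with Benjamini-Hochberg adjusted p under 0.05. It was tested on simulated data. The guide contrast used 12 means. SE and 95% intervals come from the fit. Shares were compared by an exact permutation test of libraries, without a guide term. Symbols were matched to the GRCm38 annotation in 15217 cases to 1 gene. The members and lists were chosen with earlier results of these data known. Named genes were Ado, the 12 largest rises and falls at a mean of at least 3, up to 5 called members per list and direction by adjusted p, NF-kB and IkB genes, up to 12 genes called in the genotype difference, and those marked as chosen later; a few genes that this rule names are not reported here. Alternatives changed the filter, trend, scaling, guide term, block and libraries.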

Additional observations from a re-analysis of the deposited data

Results flagged for a closer look

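In 330 groups of 4 Ado KO libraries, 1 library stood apart from the other 3 in 22 (gap over range above Dixon's critical value for 4), and chance alone gives about 1 in 20 groups. The TNF 6 h library 1-2 was the one apart in 7 of them. At TNF 6 h the values were Ado at 5.00 in 2-1 (5.37 to 5.43 in the others), Il15ra at 4.90 in 1-2 (4.14 to 4.19 in the others) and Ier5l at 3.49 in 1-2 (3.82 to 3.88 in the others). There were also Mmp9 at 4.05 in 1-2 (3.6 to 3.68 in the others), Atoh8 at -0.57 in 1-1 (-0.01 to 0.10 in the others) and Abcc1 at 5.76 in 1-2 (5.69 to 5.70 in the others). Others were Trib3 at 4.09 in 1-2 (3.58 to 3.62 in the others), Rgs2 at 0.55 in 1-1 (1.44 to 1.58 in the others) and Nfkbib at 5.4 in 1-2 (5.87 to 5.91 in the others). Further ones were Nfkbiz at 1.20 in 2-1 (1.30 to 1.31 in the others) and Nr2f2 at 4.13 in 1-2 (4.43 to 4.48 in the others).

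Untreated values were Nfkbia at 7.63 in 1-1 (7.46 to 7.47 in the others), Rgs16 at 2.80 in 1-1 (1.30 to 1.44 in the others) and Lif at -3.35 in 2-2 (-0.33 to 0.16 in the others). There were also Il4ra at 4.64 in 2-2 (4.39 to 4.42 in the others), Scd1 at 6.11 in 2-2 (6.22 in the others) and mt-Nd4l at 8.36 in 1-2 (8.15 to 8.18 in the others). Others were mt-Nd5 at 7.34 in 1-1 (6.95 to 7.01 in the others), Ccl7 at 1.51 in 1-2 (2.15 to 2.24 in the others) and Egr1 at 3.99 in 2-1 (4.39 to 4.42 in the others). Further ones were Nos2 at -1.70 in 2-2 (-3.35 in the others) and Runx2 at 2.00 in 1-2 (2.39 to 2.40 in the others).

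The response to TNF at 6 h differed between Ado KO and control cells for Snhg12 (-1.09), Snora30 (-1.55), Snora44 (-1.41), Snhg17 (-1.67), Gm24616 (-1.49), Lars2 (-1.24) and Itga11 (-3.58), given as the Ado KO minus the control log2 response, all by the interaction term of limma at an adjusted p under 0.05.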

How the results depend on the processing

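The count of 855 genes at 6 h fell to 369 without Ado guide 1 and to 417 without Ado guide 2, where 4 libraries were compared. Leaving out 1 library gave 688 to 727 calls, and the other settings 589 (protein-coding genes only, normalised again) to 1012. For the genotype difference the count was 46, against 30 without the variance trend and 70 with guide populations as fixed terms. It was 0 with protein-coding genes normalised again, a fit that left out the small RNAs and other non-coding or unmatched genes among the 46. It was 10 without structural small RNAs and histone genes (chosen after seeing the data), 7 without control guide 1, 1 without Ado guide 2, and 27 to 52 without 1 library. The cause was not tested. Against 1 h the count was 1031, with 260 without Ado guide 1, 444 without Ado guide 2 and 679 to 1296 without 1 library. The guide difference stayed at 0 in every setting run. With a replicate block the counts were 825 at 6 h, 43 for the genotype difference and 1027 against 1 h; same-numbered libraries of untreated and TNF 6 h Ado KO cells had correlated deviations of -0.158 and 0.0543, so the numbers were not taken to pair them. The ratio of small RNA shares stayed between 4.4 and 4.88. Of 157 genes printed, 126 kept their call without any 1 library, 137 in every other setting with both guides and 96 in both single-guide fits, and 0 reversed. Low genes are limited most, as 617 to 1013 genes per library sat at the lowest value.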
